A study of Mus musculus with 18 samples.

Results

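Neutrophil granule transcripts were examined in RNA-seq libraries of mouse CD8+ T cells. The 10 members were named by symbol: Mpo, Elane, Ltf, Ngp, Camp, Lcn2, Mmp8, Chil3, S100a8 and S100a9. They are 10 of the 27830 genes listed in any of the 3 deposited tables, 1 table per T cell subset. The effector and memory tables list all 10, and the naive table lists 8, without Mpo and Mmp8. The genes were selected on their measured reads, as they stood higher in effector and memory libraries of 1 genotype, so their genotype differences are given as a description and support nothing by themselves.

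The study asked how loss of GRP75, the mitochondrial chaperone encoded by Hspa9, alters gene expression of CD8+ T cells. Naive CD8+ T cells came from the lymph nodes and spleen of mice 8 weeks old that were wild type (WT) or carried a conditional knockout of Hspa9 (cKO), and no treatment was given. Effector and memory cells were differentiated in vitro from the naive cells of the same genotypes. Poly-A RNA was sequenced in 3 libraries of each genotype and subset, 18 libraries in 6 groups. The labels name neither the Cre driver of the knockout nor the strain, and they do not say whether the 3 libraries of a group came from separate mice. Errors below may therefore measure technical spread only.

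Recovered totals were 14771251 to 18049774 reads per library, so a gene with 0 reads has an upper limit, taken at 3 reads, of 0.166 to 0.203 CPM (reads scaled to the library total), which covers counting error only. Hspa9 itself was not lower in the libraries labelled cKO: its log2 difference, cKO minus WT, was 0.69 (SE 0.06) in naive, 0.16 (SE 0.05) in effector and 0.48 (SE 0.07) in memory cells, and cKO below is the label of a library. The 4 Y-linked genes looked up had a lowest sum of 0 reads among the naive WT libraries and at least 5885 summed reads in each naive cKO library. The effector and memory tables do not list them. The naive genotypes thus differ, at least in part, in Y-linked reads. A naive genotype difference therefore cannot be fully told apart from a difference in sex of the source mice. The same holds for the effects compared with naive cells below. The part of these genes in the naive values was not tested. The 14 CD8 T cell markers were summed, and they held 7132 to 9543 CPM in all 18 libraries, with no marker at 0. The list also holds genes of T cells in general, such as Cd3e and Trac. A sum of this size would not show a small share of other cells.

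Neutrophils store antimicrobial proteins and proteases in granules that form one kind after another while the cell matures in the bone marrow. Primary (azurophil) granules form at the promyelocyte stage and hold myeloperoxidase, encoded by Mpo, and neutrophil elastase, encoded by Elane. Secondary and tertiary granules form later and hold lactoferrin (Ltf), the neutrophilic granule protein (Ngp), the cathelicidin peptide (Camp), the siderophore-binding lipocalin 2 (Lcn2) and the collagenase Mmp8. S100a8 and S100a9 form calprotectin, an abundant cytosolic protein of neutrophils and monocytes, and Chil3 encodes Ym1, a chitinase-like protein of neutrophil precursors and some macrophages. T cells are not known for making these granule proteins, and transcription factors of the C/EBP family and PU.1 drive their genes in myeloid cells.

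The members lie on chromosomes 2, 3, 9, 10 and 11. On the GRCm39 coordinates of the deposited tables, Ltf (ENSMUSG00000032496, chromosome 9, 110848339 to 110871835), Ngp (ENSMUSG00000032484, 110248815 to 110252080) and Camp (ENSMUSG00000038357, 109676447 to 109678685) share a stretch of chromosome 9, which also carries Mmp8 (ENSMUSG00000005800, 7558457 to 7568486) far from them. S100a8 (ENSMUSG00000056054, chromosome 3, 90576285 to 90577342) and S100a9 (ENSMUSG00000056071, 90599939 to 90603028) are neighbours, and Chil3 (ENSMUSG00000040809, 106054870 to 106074880) is on the same chromosome. Elane (ENSMUSG00000020125) spans 79722081 to 79724049 of chromosome 10, Mpo (ENSMUSG00000009350) spans 87684407 to 87695239 of chromosome 11, and Lcn2 (ENSMUSG00000026822) spans 32274645 to 32278264 of chromosome 2. No other listed gene overlaps a member, but Chil3 has close paralogs whose reads the counting could split.

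The 200 bases before the transcription start of 5 members are shown because these genes stand for the primary group (Mpo, Elane), the secondary group (Ltf, Ngp) and the largest genotype difference (Chil3). All 10 members matched a RefSeq promoter of the build GRCm38.p6, which is not the build of the tables. Each sequence reads 5′ to 3′ on the gene's strand, and capitals mark matches on either strand to 4 short motifs: TTGCNNAA (C/EBP-like), GAGGAA (PU.1-like), TATAAA and CCAAT.
Mpo (chr11:87793584-87793783, plus strand): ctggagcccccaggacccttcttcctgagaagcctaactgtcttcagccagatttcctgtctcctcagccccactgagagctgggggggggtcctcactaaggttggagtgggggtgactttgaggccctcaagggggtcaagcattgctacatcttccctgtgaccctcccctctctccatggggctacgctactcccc
Elane (chr10:79886112-79886311, plus strand): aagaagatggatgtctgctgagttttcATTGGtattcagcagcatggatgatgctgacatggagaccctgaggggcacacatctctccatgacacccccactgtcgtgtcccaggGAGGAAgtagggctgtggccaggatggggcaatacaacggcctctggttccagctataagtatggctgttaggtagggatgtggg
Ltf (chr9:111019092-111019291, plus strand): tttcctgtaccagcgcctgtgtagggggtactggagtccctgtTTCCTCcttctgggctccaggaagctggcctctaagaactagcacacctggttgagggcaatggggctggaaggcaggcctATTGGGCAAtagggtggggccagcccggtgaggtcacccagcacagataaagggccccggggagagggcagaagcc
Ngp (chr9:110419608-110419807, plus strand): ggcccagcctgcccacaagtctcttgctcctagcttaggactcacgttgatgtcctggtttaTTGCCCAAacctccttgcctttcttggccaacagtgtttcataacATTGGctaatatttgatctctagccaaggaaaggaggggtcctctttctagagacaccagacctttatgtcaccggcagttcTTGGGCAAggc
Chil3 (chr3:106167565-106167764, minus strand): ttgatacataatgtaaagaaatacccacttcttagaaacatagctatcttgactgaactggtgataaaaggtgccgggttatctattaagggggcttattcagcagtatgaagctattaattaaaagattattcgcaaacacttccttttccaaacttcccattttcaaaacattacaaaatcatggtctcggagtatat
The C/EBP-like letters occurred in 3 of 10 members, Ltf, Ngp and Mmp8, and in 7.473% of 32851 promoter windows of the same length. In Ltf that match overlaps a CCAAT match on the same strand. The PU.1-like letters were in 4 members (Ltf, Elane, S100a8 and Lcn2) against 19.03% of windows, CCAAT in 3 members (Ltf, Ngp and Elane) against 29.35%, and TATAAA in 1 member, S100a8, against 9.96%. Mpo and Chil3 held none of the 4 motifs in this window. A match is a run of letters and says nothing of binding.

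In naive cells the members were at or near the counting floor in both genotypes. S100a9 had 3, 6 and 4 reads in WT replicates 1, 2 and 3 and 7, 3 and 4 in the cKO replicates. Camp had 2, 5 and 0 reads in WT and 1, 1 and 2 in cKO, and S100a8 had 1, 4 and 0 in WT and 6, 1 and 0 in cKO. Chil3 had 1, 0 and 2 reads in WT and 4, 2 and 3 in cKO. The genotypes overlap for each of these genes. Lcn2 had 0, 2 and 1 reads in WT and 0 in every cKO library, and Ltf, Ngp and Elane had at most 3 reads in any naive library. Summed over the 8 listed members, a library held 7 to 22 reads in WT and 9 to 24 in cKO, or 0.821 ± 0.447 and 0.868 ± 0.406 CPM (SD, n = 3 libraries per genotype). Genes were tested when at least 3 libraries of a subset reached 10 normalised reads, the deposited reads divided by a size factor. No naive member passed this, so 0 were tested and 0 called in either direction, where 12.9% of all 13885 naive genes tested were called higher and 11.9% lower. Without that filter limma, a linear model of log2(normalised reads + 1), called 0 of the 8, and 0 had an unadjusted p under 0.05. At this depth no genotype difference was detectable in naive cells.

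Effector WT cells carried low but countable amounts of most members, and the libraries labelled cKO carried more of them. Of the primary granule genes, Mpo had 46, 36 and 28 reads in the WT libraries and 154, 198 and 126 in the cKO libraries. Elane had 15, 12 and 17 reads in WT and 43, 34 and 39 in cKO. For both genes every cKO library lies above every WT library. On the log2(normalised reads + 1) scale, the cKO minus WT difference was 2.04 (SE 0.21) for Mpo and 1.30 (SE 0.30) for Elane.

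Of the secondary and tertiary granule genes, Ngp had 65, 50 and 76 reads in WT and 190, 236 and 226 in cKO. Ltf had 49, 33 and 32 reads in WT and 149, 156 and 136 in cKO. Camp had 11, 19 and 6 reads in WT and 45, 50 and 47 in cKO. These 3 genes do not overlap between the genotypes, and their log2 differences were 1.72 (SE 0.16), 1.90 (SE 0.20) and 1.97 (SE 0.37). Lcn2 was less even, with 9, 9 and 30 reads in WT and 45, 80 and 31 in cKO, so that WT replicate 3 nearly reached cKO replicate 3. Its difference was 1.70 (SE 0.40). Mmp8 stayed under the filter with 4, 1 and 1 reads in WT and 6, 9 and 3 in cKO, and its genotypes overlap.

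The calprotectin genes and Chil3 had the same order in effector cells. S100a9 had 61, 65 and 62 reads in WT and 223, 210 and 177 in cKO, and S100a8 had 42, 46 and 63 in WT and 156, 168 and 131 in cKO. Chil3 had 24, 11 and 28 reads in WT and 68, 75 and 63 in cKO. Every cKO library again lies above every WT library. The log2 differences were 1.62 (SE 0.15) for S100a9, 1.53 (SE 0.17) for S100a8 and 1.70 (SE 0.30) for Chil3. In all, 9 of the 9 effector members tested were called higher in cKO (limma, Benjamini-Hochberg adjusted p under 0.05), where 10.7% of 13815 genes tested were called higher. None was called lower, also at an unadjusted p under 0.05 and by edgeR or DESeq2. The median difference of the 9 was 1.70, against -0.01 over all genes tested. All 3 cKO libraries stood above all 3 WT libraries for 9 of the 10 members and for 17.9% of genes tested. In the fit of all 18 libraries together, S100a8 and Elane missed the threshold (adjusted p = 0.058 and 0.052).

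**Figure D1:**
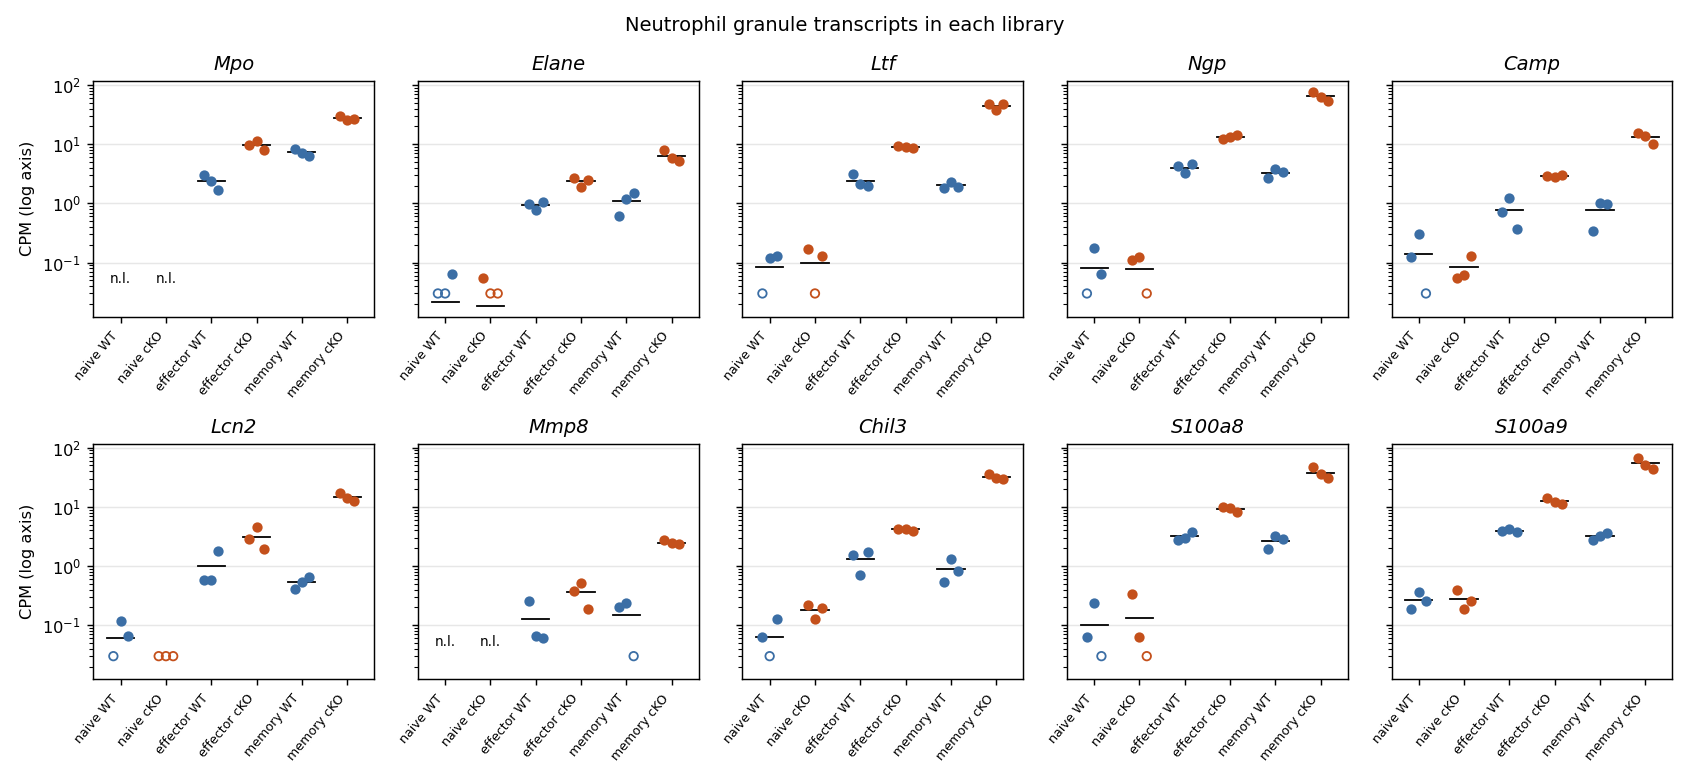
CPM of each member (log axis) in every library of the 6 groups, with WT in blue, cKO in orange and a bar at the mean of the 3 libraries. Open circles mark libraries with 0 reads, drawn at a fixed height, and n.l. marks genes the naive table does not list. The memory cKO libraries are highest for all 10 members, and the naive libraries are near the floor.

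Memory cells showed the largest genotype differences, and these were unequal among the members. Chil3 differed most, with 8, 22 and 14 reads in the WT libraries and 587, 501 and 502 in the cKO libraries, a log2 difference of 5.08 (SE 0.27). Lcn2 had 6, 9 and 11 reads in WT and 276, 229 and 208 in cKO (4.55, SE 0.24). Ltf had 27, 38 and 33 reads in WT and 781, 625 and 793 in cKO (4.35, SE 0.15). In normalised reads the ratio of the cKO to the WT mean was 34.1 for Chil3, 25.9 for Lcn2 and 20.9 for Ltf.

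Ngp had 39, 63 and 57 reads in memory WT and 1246, 1047 and 906 in memory cKO (4.22, SE 0.16). Camp had 5, 17 and 17 reads in WT and 254, 221 and 168 in cKO (3.99, SE 0.36). Mmp8, at the floor in WT with 3, 4 and 0 reads, had 44, 40 and 39 in cKO (3.84, SE 0.60). Mmp8 was the 1 memory member with no WT library at 10 normalised reads, so it entered the test through the cKO libraries alone. Without cKO replicate 1, 2 or 3 it was not tested, and the memory count below fell from 10 to 9. S100a9 had 40, 54 and 61 reads in WT and 1103, 841 and 745 in cKO (3.99, SE 0.17), and S100a8 had 29, 53 and 49 in WT and 761, 578 and 509 in cKO (3.71, SE 0.21). The cKO libraries lie far above the WT libraries for each of these genes.

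The primary granule genes differed least in memory cells. Mpo had 124, 120 and 110 reads in WT and 493, 413 and 452 in cKO, a log2 difference of 1.82 (SE 0.13), and a ratio of means of 3.55. Elane had 9, 20 and 26 reads in WT and 127, 96 and 88 in cKO (2.44, SE 0.32). All 10 memory members were called higher in cKO, where 12.1% of 14622 genes tested were called higher, and none was called lower, also at an unadjusted p under 0.05 and by edgeR or DESeq2. The median difference of the 10 was 3.99, against -0.02 over all genes tested. All 3 cKO libraries stood above all 3 WT libraries for 10 of 10 members and for 19.4% of genes tested. In the authors' deposited table the log2 fold changes, given there as WT over cKO, ran from -5.08 to -1.83 in memory cells, and from -2.05 to -1.35 for the 9 effector members with an adjusted p under 0.05.

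**Figure D2:**
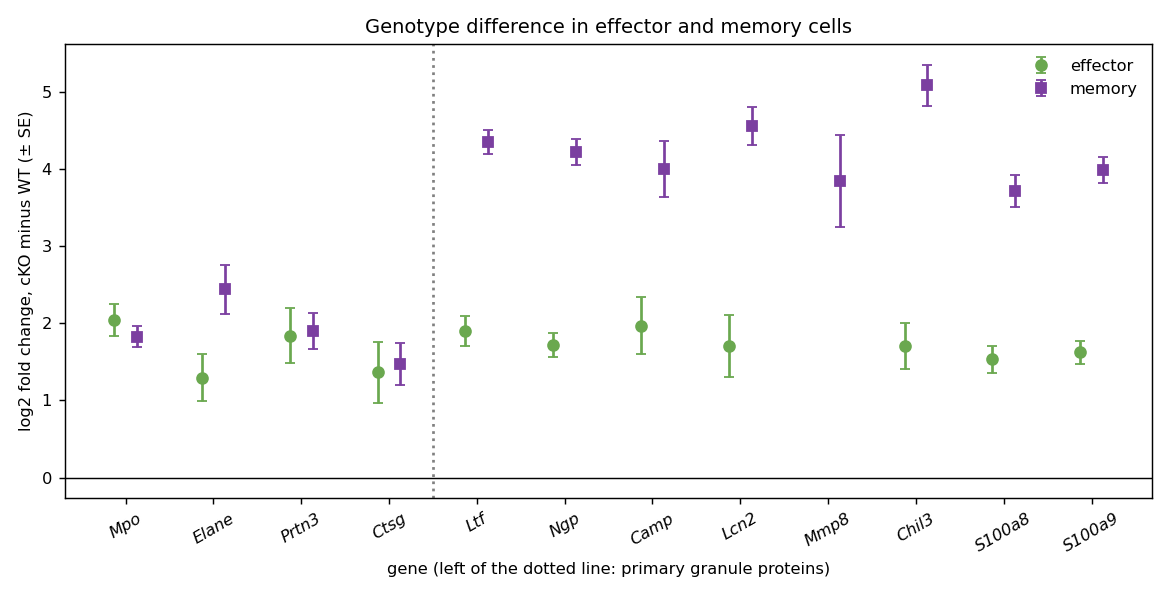
Log2 difference between cKO and WT (points, ± SE from limma on 3 libraries per genotype) in effector cells (green circles) and memory cells (purple squares). Genes left of the dotted line encode primary granule proteins. Mpo, Prtn3 and Ctsg have like values in both subsets, Elane is at 1.30 and 2.44, and the genes right of the line lie between 1.53 and 1.97 in effector and between 3.71 and 5.08 in memory cells; Mmp8 was tested in memory cells only.

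The balance between the 2 granule classes differed between groups. Mpo and Elane together made up 62.4% (95% exact binomial interval 55.6 to 69.0), 51.7% (45.5 to 57.7) and 53.5% (47.2 to 59.8) of the reads of the 7 granule genes Mpo, Elane, Ltf, Ngp, Camp, Lcn2 and Mmp8 in memory WT replicates 1, 2 and 3. In the memory cKO replicates the share was 19.2% (17.9 to 20.7), 19.1% (17.6 to 20.6) and 20.3% (18.8 to 21.9). Effector libraries lay between these groups, at 23.7% to 30.7% in WT and 27.1% to 31.2% in cKO, and there the genotypes overlap. The intervals cover counting error only. Reads of Mpo over reads of Ltf, not corrected for length, were 3.16 to 4.59 in memory WT and 0.570 to 0.661 in memory cKO, and 0.875 to 1.09 and 0.926 to 1.27 in effector WT and cKO. Mpo alone was 34.0 ± 7.64% of all member reads in memory WT and 9.31 ± 0.826% in memory cKO, while Chil3 went from 3.99 ± 1.39% to 10.9 ± 0.518% (SD, n = 3). These shares follow from the same reads as the differences above. In a bulk library, more cells of a type and more RNA per cell cannot be told apart.

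**Figure D3:**
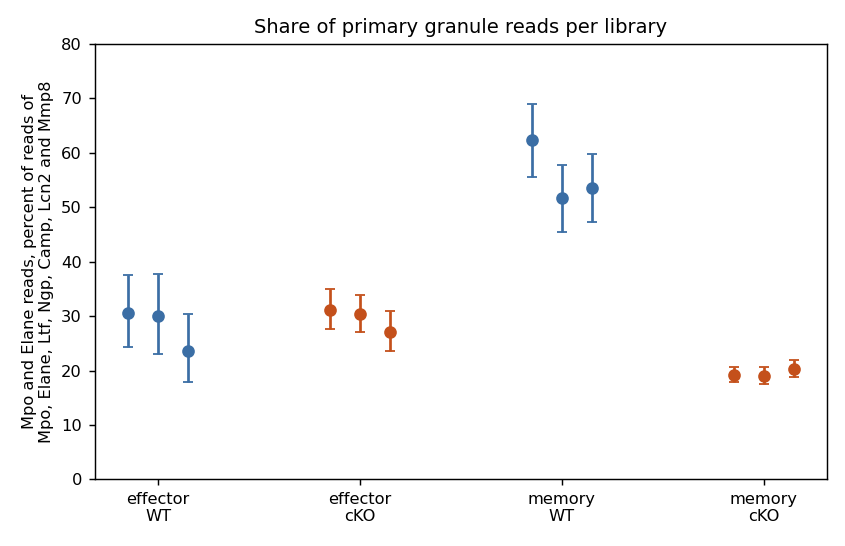
Percent of the reads of 7 granule genes that came from Mpo and Elane in each effector and memory library, with 95% exact binomial intervals. Memory WT libraries sit between 51.7% and 62.4%, memory cKO libraries between 19.1% and 20.3%, and the effector libraries of both genotypes between 23.7% and 31.2%.

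Summed over the members, WT effector and WT memory libraries held 20.1 ± 1.55 and 21.9 ± 2.23 CPM (SD, n = 3), means that differ by less than the SD of the memory libraries, against 0.821 ± 0.447 in WT naive libraries. The cKO sums were 66.3 ± 3.88 in effector and 297 ± 46.7 in memory libraries, with log2 ratios of the cKO to the WT mean of 1.72 and 3.76. These WT sums had unequal parts. Mpo stood at 2.34 ± 0.641 CPM in effector WT and 7.34 ± 0.997 in memory WT, without overlap, while Ltf stood at 2.42 ± 0.662 and 2.01 ± 0.243, within its spread, and Ngp at 4.03 ± 0.704 and 3.25 ± 0.579. The tables were normalised separately, so these levels are scaled to library totals and were not tested across subsets.

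Per kilobase of gene length, S100a9, S100a8 and Ngp led in all 4 effector and memory groups. In memory cKO the levels were 104 ± 23.5, 54.0 ± 12.4 and 53.0 ± 9.50 CPM per kilobase (SD, n = 3), and S100a8 and Ngp were closer than their SDs. Chil3 (19.7 ± 2.16) and Camp (17.2 ± 3.80) came next and also lay within an SD of each other. Ltf followed at 12.9 ± 1.60, Mpo at 8.02 ± 0.783, Elane at 6.41 ± 1.39, Lcn2 at 5.51 ± 0.909 and Mmp8 at 1.03 ± 0.0848, where Elane and Lcn2 were closer than their SDs. In memory WT, Mpo came after these 3 genes at 2.14 ± 0.291, ahead of Elane (1.13 ± 0.468) and Camp (1.03 ± 0.510), which did not differ beyond their spread. Chil3, next after those 3 genes in memory cKO, ranked 8 of 10 in memory WT at 0.548 ± 0.243, within an SD of Ltf at 0.583 ± 0.0703. In effector WT, S100a9 led at 7.63 ± 0.439, and Camp, Elane, Chil3, Ltf and Mpo formed a run from 1.02 ± 0.578 down to 0.684 ± 0.187 in which each lay within an SD of the next.

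The difference of the genotype effect between subsets was fitted as an interaction term of 1 limma model. These terms are built from the comparisons on which the genes were selected, and the subsets share no libraries. Memory minus effector, the effect was larger for 5 of the 8 members in the fit of all 18 libraries (Chil3 3.38, SE 0.57; Lcn2 2.85, SE 0.65; Ngp 2.50, SE 0.57; Ltf 2.45, SE 0.59; S100a9 2.37, SE 0.35), where 5.2% of genes tested had a larger effect. S100a8 (2.18, SE 0.72), Camp (2.02, SE 0.76) and Elane (1.14, SE 0.59) missed the threshold there. A fit of the 12 effector and memory libraries, added after the data were seen, also held Mpo and Mmp8, and called 7 members, now with S100a8 and Camp, where 7.31% of genes had a larger effect. In that fit Mpo differed by -0.22 (SE 0.27, adjusted p = 0.67), Elane by 1.14 (SE 0.44, adjusted p = 0.11) and Mmp8 by 2.62 (SE 0.87, adjusted p = 0.062), none of them past the threshold.

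Against naive cells, where the members held a handful of reads, the memory effect was larger for 8 of 8 members (2.49 for Elane to 5.44 for Lcn2), with 8.55% of genes larger, and edgeR called 5. The effector effect was larger than the naive effect for 5 of 8, Lcn2 (2.59), Camp (2.23), Ltf (1.84), Ngp (1.74) and S100a9 (1.69), with 9.49% of genes larger. This count changed with the settings. It was 3 by DESeq2, 0 by edgeR (3 at an unadjusted p under 0.05), 2 with a pseudocount of 0.5 and 8 with a pseudocount of 5. It was 3 without effector WT replicate 1, 2 or 3 or naive cKO replicate 2, and 2 without effector cKO replicate 1, 2 or 3 or naive WT replicate 2.

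Other genes of neutrophils were counted from 2 lists of 43 genes in all, 20 granule proteins and 23 genes of the neutrophil lineage and surface. The lists were written from textbook roles, but with earlier results of these data known, so their counts are a description and no independent check. In memory cells 26 of the 31 tested were called higher, against 12.1% of all genes tested. None was called lower (limma, 0 at an unadjusted p under 0.05, and 0 by edgeR and DESeq2), and the median was 3.14. Of these 31, 14 had no WT library at 10 normalised reads and had to differ to be tested at all, and all 14 were called. Of the remaining 17, 12 were called. Without memory cKO replicate 1, 2 or 3 the count was 11, 10 or 9, since genes near 0 in WT then no longer reach the filter. In effector cells 8 of 15 were called higher, against 10.7% of all genes tested. None was called lower (0 also by edgeR, DESeq2 and an unadjusted p under 0.05), and the median was 0.84. Ctsg and Csf3r, 2 of the 8, had no WT library at 10 normalised reads and entered through the cKO libraries alone, and 6 of the other 13 were called. That count was 5 without effector cKO replicate 3. In naive cells 6 were tested and 0 were called higher (0 at an unadjusted p under 0.05, and 0 by edgeR and DESeq2), against 12.9% of all genes tested. Of the 6, 3 were called lower, against 11.9% of all genes tested.

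The primary granule proteases outside the member list had values like those of Mpo. Prtn3, which encodes proteinase 3, had 13, 7 and 9 reads in effector WT and 46, 30 and 38 in effector cKO, and 29, 19 and 33 in memory WT and 102, 108 and 115 in memory cKO. Its log2 differences were 1.84 (SE 0.35, limma adjusted p = 0.00092) and 1.90 (SE 0.24, adjusted p = 0.00014). Ctsg, cathepsin G, differed by 1.36 (SE 0.40, tested through the cKO libraries alone) in effector and 1.47 (SE 0.27) in memory cells. Memory minus effector, Prtn3 differed by 0.06 (SE 0.42, adjusted p = 0.95) and Ctsg by 0.11 (SE 0.42, adjusted p = 0.91) in the limma fit of 12 libraries, and neither passed the threshold.

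Lyz2 and Cybb, which neutrophils share with macrophages, differed more between the genotypes in memory than in effector cells, by 2.76 (SE 0.16, adjusted p = 5.2e-09) and 1.96 (SE 0.19, adjusted p = 2.0e-06) in the limma fit of 12 libraries. Lyz2, lysozyme, had 101, 128 and 104 reads in memory WT and 2717, 2222 and 2098 in memory cKO, a log2 difference of 4.28 (SE 0.13), against 1.52 (SE 0.10) in effector cells. Cybb, the heavy chain of the phagocyte oxidase, differed by 2.80 (SE 0.14) in memory and 0.84 (SE 0.13) in effector cells, while Cyba, its partner, which T cells also express, was not called in either of these subsets (0.11 and 0.06). In naive cells Cybb, under the filter, had 0, 1 and 0 reads in WT and 18, 9 and 9 in cKO, without overlap, and its effect was smaller in effector than in naive cells (-2.37, SE 0.37, adjusted p = 5.7e-05, limma fit of 18 libraries). Pglyrp1, a peptidoglycan recognition protein, differed by 0.63 in memory cells. Slpi, a secreted inhibitor of elastase, fell by 1.55 (SE 0.25) in naive cells, rose by 1.46 (SE 0.34) in effector cells and was not called in memory cells (0.30), and G0s2 fell by 1.15 (SE 0.25) in naive cells and was not called in the other subsets (0.38 and 0.39). Csf3r, the G-CSF receptor of neutrophils, differed by 2.24 (SE 0.46, again tested through the cKO libraries alone) in effector and 3.18 (SE 0.30) in memory cells. Ly6g, the surface marker of mature mouse neutrophils, was close to the floor, with 2 to 4 reads in effector WT, 5 to 6 in effector cKO, 0 in every memory WT library and 12, 6 and 3 in memory cKO.

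Among 8 transcription factors known to act on granule genes, 5 were higher, 1 was lower and 2 were not called in memory cells, and 1 of 7 was higher in effector cells. Of those 5, Cebpe entered the memory test through the cKO libraries alone. Over all genes tested, 12.1% were called higher in memory, 10.7% in effector and 12.9% in naive cells, so the effector count is near that share. In naive cells 2 of 5 were higher, Gfi1 by 0.98 (SE 0.10, limma adjusted p = 4.7e-05) and Cebpb by 1.58 (SE 0.28, adjusted p = 0.0017), while the members there were near the floor. Cebpe, the C/EBP factor of secondary granule genes, had 0 reads in each memory WT library and 11, 12 and 14 in memory cKO, and at most 1 read in effector WT and 2, 10 and 2 in effector cKO. Spi1, which encodes PU.1, differed by 2.70 (SE 0.17) in memory and 1.40 (SE 0.27) in effector cells. Cebpa differed by 2.32 (SE 0.37) in memory cells and was not called in effector cells (-0.20, SE 0.54). Gfi1 and Runx1, which T cells express too, were not called in effector or memory cells, and Myb fell by 1.14 (SE 0.10) in memory cells.

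Across the 18 libraries the 8 members listed in all 3 tables had pairwise Pearson correlations of 0.95 to 1.00 on log2(CPM + 1), a description of 18 points that share 6 group means. Of 15832 genes compared, those with the profile most like the mean of these members included Tgfbi (0.990), C3 (0.988), Lyz2 (0.985), Cst3 (0.984), Grn (0.983), Trpm2, Naaa, Tifab and Csf2rb (0.981 each). Tgfbi, an extracellular matrix protein of macrophages and other cells, had 10 to 18 reads in memory WT and 265 to 294 in memory cKO libraries, against 13 to 20 and 60 to 80 in effector WT and cKO.

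Markers of several other cell types were also higher in cKO, and their part in the results above was not tested. The shares of all genes called higher, given above, were 12.1% in memory and 10.7% in effector cells. Monocyte and macrophage markers were called higher for 9 of 13 tested in memory and 6 of 12 in effector cells (1 lower), and summed to 468 to 528 CPM in memory WT and 742 to 907 in memory cKO. Ly6c2 alone held 430 of the mean sum of 493 CPM in memory WT and 511 of 820 in memory cKO. Dendritic cell markers were higher for 9 of 9 in memory and 7 of 7 in effector cells, of which 3 (Clec10a, Batf3 and Cd209a) and 1 (Batf3) entered the test through the cKO libraries alone, with sums of 42.4 to 48.4 in memory WT and 198 to 201 in memory cKO, and of 699 to 716 in effector WT and 805 to 827 in effector cKO. Itgax alone held 701 of the mean sum of 706 CPM in effector WT and 796 of 816 in effector cKO, so the effector sums describe mainly this gene. It held 36.6 of 45.0 in memory WT and 80.4 of 199 in memory cKO. Erythroid markers were higher for 8 of 13 in memory and 12 of 12 in effector cells, and their sum went from 27.4 to 27.7 in effector WT to 129 to 136 in effector cKO, and from 46.0 to 56.0 to 112 to 126 in memory cells. B cell markers were higher for 9 of 12 in memory and 2 of 12 in effector cells, and NK cell markers for 5 of 8 in each subset (Ncr1 in memory cells through the cKO libraries alone), with 1 lower in memory and 2 lower in effector cells. The eosinophil, basophil and mast cell list was higher for 3 of 7 in memory and 2 of 6 in effector cells, where 1, Ccr3, was lower. Megakaryocyte and platelet markers were higher for 0 of 4 in memory and 2 of 4 in effector cells, where 1, Itgb3, was lower and the mean sum was 40.3 CPM in WT and 32.5 in cKO. CD8 T cell markers had 0 higher and 4 lower of 14 in memory cells, where their sum was 8380 to 8882 CPM in WT and 7132 to 8063 in cKO. In effector cells 3 of the 14 were higher and 4 lower, and in naive cells 1 was higher and 7 lower. Their sums were 9399 to 9543 CPM in effector WT and 8698 to 8974 in effector cKO. In naive cells they were 8402 to 8650 in WT and 7697 to 7950 in cKO. Of all genes called by limma, 1769 of 2793 in memory and 1485 of 2779 in effector cells were higher. In naive cells 11.9% of all genes tested were lower. Among listed markers, those with 0 reads in all 3 libraries of a group were Ly6g, Stfa2l1, Ear1, Mcpt4 and Cebpe in memory WT. In effector WT they were Olfm4 and Cxcr1, and the cKO groups of these subsets had none. In naive WT they were Lyz1, Fcnb, Mmp25, Cxcr2, Mcemp1, C1qb, Xcr1, Clec9a, Clec10a, Siglech, Mcpt8, Prss34, Gp9, Ncr1 and Klra8. In naive cKO they were Lcn2, Ctsg, Ms4a3, Hba-a2, Hbb-bt and Tpsb2. The share of all listed genes with 0 reads in a group was not counted, so these names are a description only. The tables list no gene with 0 reads in all of their libraries, so markers without reads in both genotypes are not among these names.

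**Figure D4:**
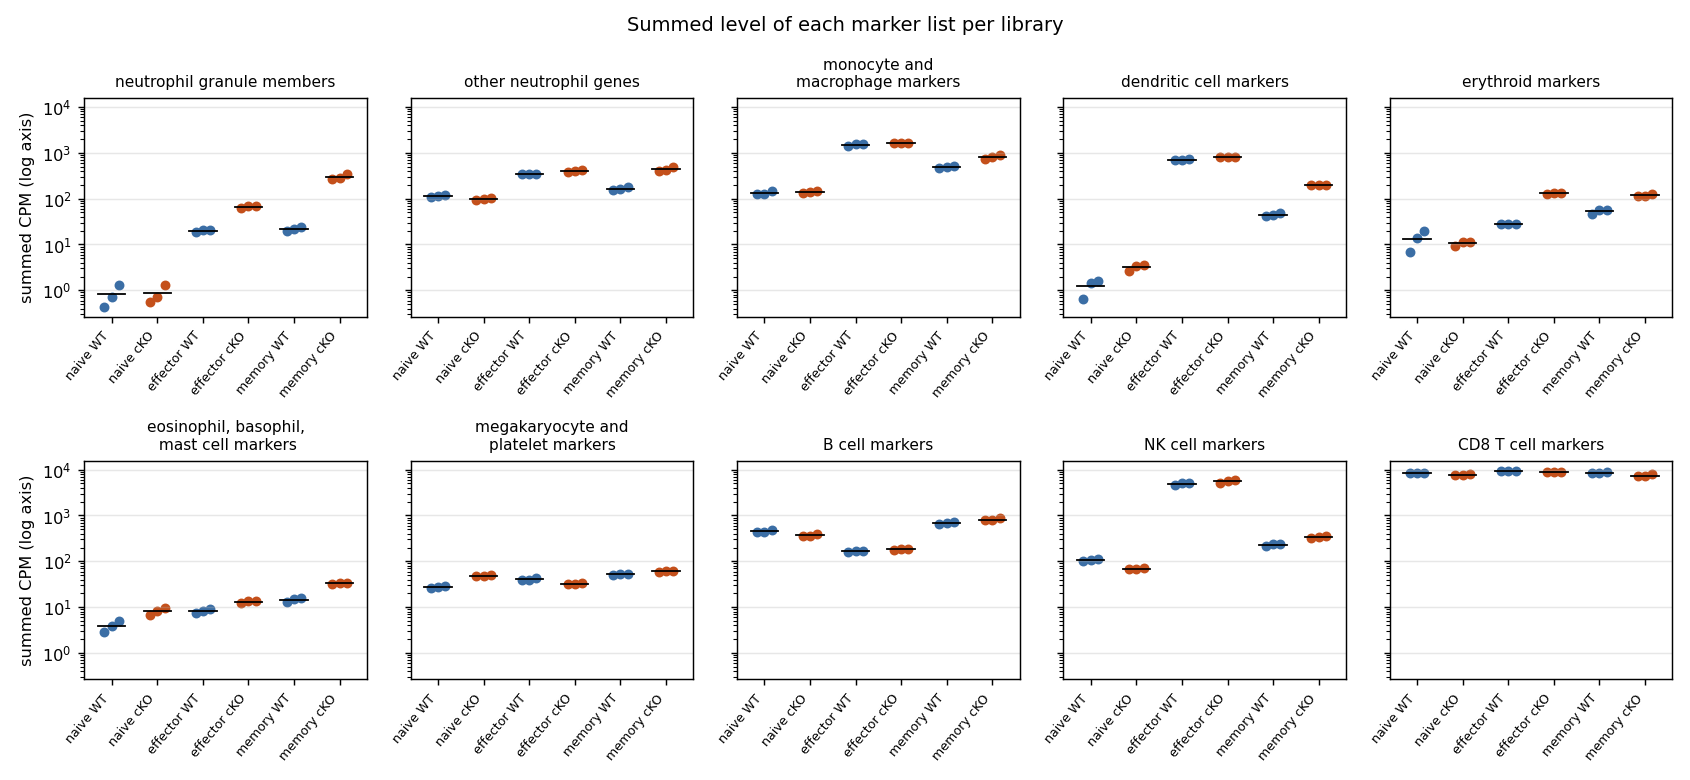
Summed CPM (log axis) of the members, of the other neutrophil genes and of 8 marker lists in each library, with WT in blue, cKO in orange a bar at the mean of 3 libraries and the libraries of a group drawn from lowest to highest. Member sums span 0.440 CPM in a naive WT library to 350 in a memory cKO library, while CD8 T cell markers stay between 7132 and 9543.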

How the data were processed

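The members and lists were chosen with earlier results of these data known. The authors deposited 1 table per subset holding, for each gene in each library, a signal (reads divided by a size factor), a log2 fold change and p-values. Per the submitters' processing notes the tools were DESeq2 1.42.0, featureCounts 2.0.6, HISAT2 2.2.1 and fastp, with build GRCm39; their settings, the annotation and the strand setting are not given in the sources used here. Values were whole multiples of 1 read for 100% of entries (tolerance 1e-05), which gave reads per library. Genotypes were compared with limma 3.58.1 (R 4.3.3, intensity trend) on log2(normalised reads + 1), for genes with at least 10 in 3 libraries, with Benjamini-Hochberg adjustment over all genes tested and a threshold of 0.05. edgeR 4.0.16, DESeq2, other pseudocounts and filters, library totals, a replicate block and leaving out each library were alternatives. The fit was tested on simulated data. Named were all members, the 6 other neutrophil genes with the most reads, Prtn3, Ctsg, Ly6g, Csf3r and Cebpe, and the 10 genes most like the members, of which 1 is not reported here. The transcription factors and the single markers of other cell types were named after their values were seen. The rule also named the 2 genes with the most reads of each other marker list; the text gives those lists mainly by counts and sums.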

Additional observations from a re-analysis of the deposited data

Results flagged for a closer look

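The genotype effect of several members differed between subsets by the interaction term of the limma fit of all 18 libraries (adjusted p under 0.05). These terms are built from the comparisons on which the genes were selected, so they are a description. Of all genes tested, 5.2% had a larger effect memory minus effector, 8.55% memory minus naive and 9.49% effector minus naive. By edgeR 7 members were called memory minus effector, 5 memory minus naive and 0 effector minus naive. All values are differences of the cKO minus WT effect on the log2(normalised reads + 1) scale, and all were larger in the subset named first. Memory minus effector, Chil3 differed by 3.38, Lcn2 by 2.85, Ngp by 2.50, Ltf by 2.45 and S100a9 by 2.37. Memory minus naive, Lcn2 differed by 5.44, Ltf by 4.29, Camp by 4.25, Ngp by 4.24, Chil3 by 4.08, S100a9 by 4.05, S100a8 by 3.63 and Elane by 2.49. Effector minus naive, Lcn2 differed by 2.59, Camp by 2.23, Ltf by 1.84, Ngp by 1.74 and S100a9 by 1.69. Each naive library held at most 7 reads of any member, so the last 2 comparisons rest on values near 0 reads in naive cells.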

How the results depend on the processing

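Members called higher were 9 in effector cells and 10 in memory cells, and leaving out 1 library gave 9 and 9 to 10. The log2 ratio of the summed member level, cKO over WT, was 1.66 to 1.77 in effector, 3.63 to 3.85 in memory and -0.37 to 0.59 in naive cells when 1 library was left out. Other neutrophil genes called higher in memory cells numbered 26, but 17 in the fit of all 18 libraries, 14 with a minimum of 30 normalised reads, and 9 to 26 without 1 library. In effector cells they numbered 8, but 5 with a minimum of 30 and 5 to 9 without 1 library. In naive cells they numbered 0, but 2 in the fit of all 18 libraries and 1 with no filter. The effector minus naive count of members, 5, was 3 by DESeq2, 0 by edgeR, 2 with a pseudocount of 0.5, 8 with a pseudocount of 5 and 2 to 5 without 1 library, and the memory minus naive count, 8, was 5 by edgeR. Fewer genes are tested with the higher minimum or without a cKO library; otherwise the cause was not tested. The naive summed level, which was not tested, changed sign (0.08 over all libraries). No called result changed direction. For single members the genotype effect kept its side of the threshold in 277 combinations of member and alternative setting and fell short in 2. The differences between subsets kept it in 433, fell short in 41 and newly passed in 14. Settings in which a member was not tested are left out of these numbers. Among them is Mmp8 in memory cells without 1 cKO library, where its call was lost.

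Libraries of the same number did not deviate together (correlations of -0.14 to 0.07), and not every library correlated best with its own number. The numbers were therefore not used as pairs in the main fit. With so few libraries per group, these correlations cannot exclude a shared origin of libraries with the same number. With the replicate number as a block 9 effector and 10 memory members were called, and 25 other neutrophil genes in memory cells. Scaling to library totals moved the median of all naive genes by 0.12 on the log2 scale, and no member was called there. The depth limits the naive values and Mmp8, Camp, Elane, Lcn2 and Chil3 in the WT libraries, where a few reads set the fold.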
